A study of Mus musculus with 9 samples.

Results

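The 10 genes Cldn5, Ocln, Slc2a1, Abcb1a, Mfsd2a, Flt1, Kdr, Tek, Pecam1 and Cdh5 of brain endothelial cells and of the blood-brain barrier were followed across the hippocampus of middle-aged mice given quercetin, middle-aged control mice and young control mice. They were taken by gene symbol from the deposited expression table. All 10 of 10 symbols were found among its 22173 genes, and all 10 passed the filter on low values, which left 13062 genes. The lowest value of any of them in any library was 2.08 FPKM (fragments per unit of gene length and of mapped reads, so that levels of different genes can be set side by side), so none passed through 1 group alone.

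The RNA-seq compared 3 groups of C57BL/6 mice with 3 libraries each. The middle-aged quercetin group was 10 months old and received quercetin, a plant flavonol, for 24 days, at 1 mg/kg into the tail vein every other day, dissolved in PBS with 10% DMSO. The 24 days come from the sample labels and the dosing from the paper, which gives a longer course for its behaviour experiment. The middle-aged control group was also 10 months old and received that carrier alone, and the young control group was 8 weeks old and received the same carrier. The paper describes its mice as female. Whole hippocampus was used, and nothing read here says that each library came from a single mouse, so p-values measure only the spread between these samples.

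Brain capillaries are lined by endothelial cells that are sealed to each other by tight junctions and carry few transport vesicles. Nutrients therefore enter through dedicated carriers, and many lipophilic drugs are pumped back into the blood. Growth of these vessels is steered by vascular endothelial growth factor (VEGF) and angiopoietin receptors, and the barrier state is kept by Wnt signals from neural cells. In bulk tissue, fewer endothelial cells and less RNA per cell cannot be told apart.

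Before the results, 2 libraries stood apart in choroid plexus transcripts. The summed level of 12 choroid plexus genes was 1126 FPKM in middle-aged quercetin 2 and 2836 FPKM in young control 3, and between 50.87 and 87.81 FPKM in the other 7 libraries. Most of it was Ttr (transthyretin), at 930.39 FPKM in middle-aged quercetin 2 and 2390.38 FPKM in young control 3. Transcripts of red cells (5 genes) summed to between 22.57 and 87.62 FPKM in quercetin libraries, between 79.29 and 107.83 FPKM in middle-aged controls and between 14.39 and 107.94 FPKM in young controls. The summed level of 9 hippocampal neuron genes lay between 1896 and 2087 FPKM in all 9 libraries. Most of it was Snap25 (group means of 940 to 969 FPKM) and Camk2a (744 to 786 FPKM), so it says little of the other genes. Meningeal fibroblast genes (6 genes) summed to 39.36 to 44.01 FPKM in quercetin libraries, 37.94 to 55.96 FPKM in middle-aged controls and 38.06 to 45.08 FPKM in young controls. Perivascular macrophage genes were near 0, with a summed level of at most 2.53 FPKM over 4 genes. FPKM holds no read counts, so the depth of each library is unknown and no counting interval can be given.

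The levels of the 10 genes spanned the low to upper range of hippocampal genes. Slc2a1, which encodes the glucose carrier GLUT1, was the highest, with a mean of 35.8 ± 4.16 FPKM (SD, n = 9), above 84.1% of the genes tested. It was the one member whose 9 values cleared those of every other, since its lowest library had 29.88 FPKM and the highest library of Cldn5 had 16.91 FPKM. GLUT1 is also made by astrocytes, in a less glycosylated form of the same protein. Cldn5 (claudin-5, the main claudin of brain endothelium) averaged 12.4 ± 2.15 FPKM and Flt1 (VEGF receptor 1) 11.4 ± 0.737 FPKM. They were followed by Mfsd2a (8.59 ± 1.80 FPKM), Abcb1a (6.89 ± 0.684 FPKM), Pecam1 (5.54 ± 0.704 FPKM) and Ocln (4.89 ± 0.637 FPKM). From Cldn5 down to Ocln, the ranges of neighbours in this order overlapped. Cdh5 (2.81 ± 0.503 FPKM), Tek (2.65 ± 0.319 FPKM) and Kdr (2.64 ± 0.310 FPKM) formed the lowest set, overlapped one another and lay wholly below Ocln, whose lowest library had 4.26 FPKM. Across the 9 libraries Mfsd2a varied the most for its mean (coefficient of variation 21.0%) and Flt1 the least (6.48%).

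**Figure D1:**
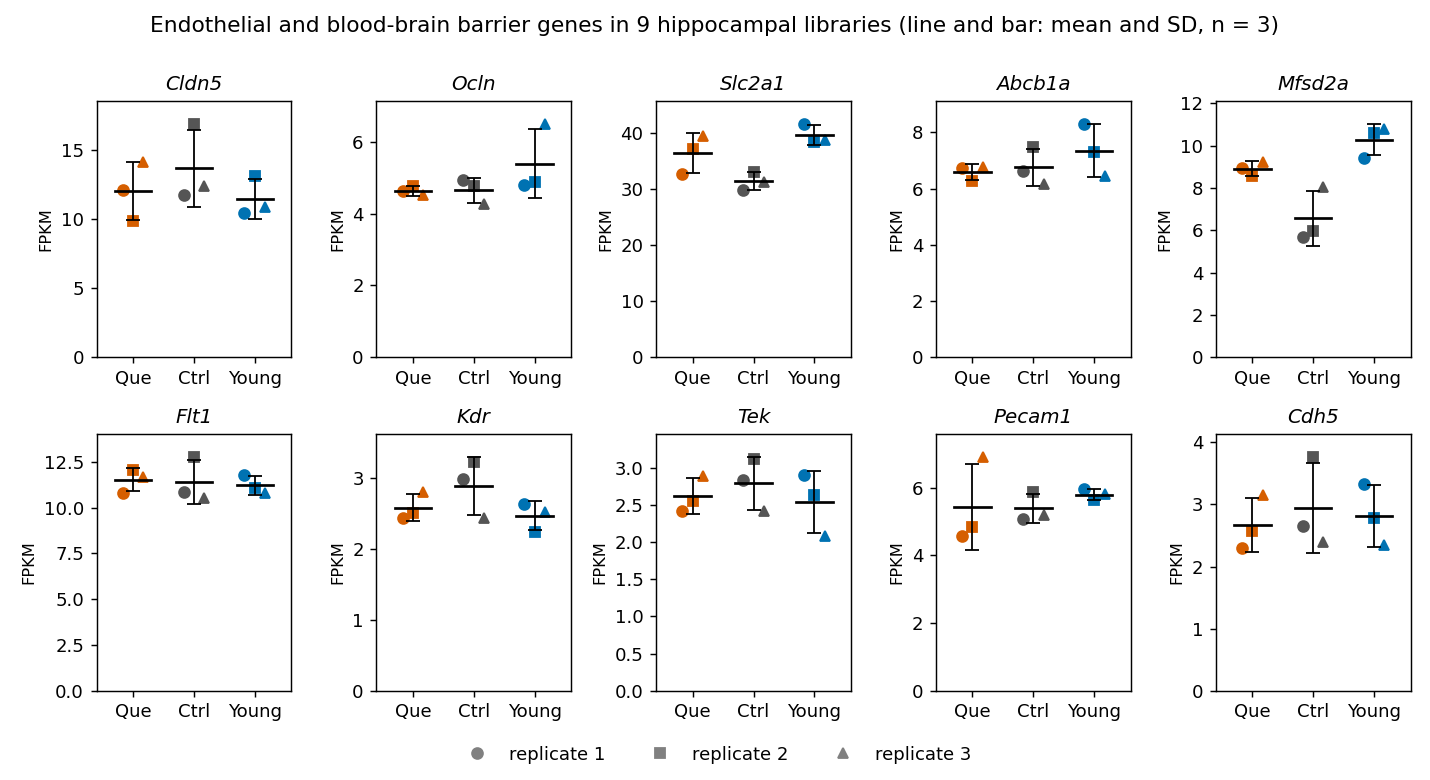
Level of each of the 10 genes in every library, with FPKM on the vertical axis and the 3 groups side by side, middle-aged quercetin, middle-aged control and young control. Points are libraries and bars are group means with SD (n = 3). For Mfsd2a the 3 middle-aged controls (5.68 to 8.06 FPKM) sit below all quercetin and all young libraries.

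Mfsd2a (gene ID 76574, chr4:122946850-122961194, GRCm38.p6) encodes the carrier that brings lysophosphatidylcholine with docosahexaenoic acid into the brain, and in mice it also holds vesicle transport across the endothelium low. Its level was 8.93, 8.56 and 9.25 FPKM in middle-aged quercetin libraries, 5.68, 5.96 and 8.06 FPKM in middle-aged controls and 9.44, 10.62 and 10.81 FPKM in young controls. No values overlapped between any pair of groups, with young controls the highest and middle-aged controls the lowest. Of all genes, 9.41% had middle-aged controls wholly below young controls, and 8.97% had quercetin libraries wholly above middle-aged controls. Quercetin libraries lay wholly below young controls for 5.82%. The share of all genes that separated in every pair was not counted. The group means were 8.91 ± 0.345, 6.57 ± 1.30 and 10.3 ± 0.742 FPKM for quercetin, middle-aged control and young control (SD, n = 3 each).

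Slc2a1 (gene ID 20525, chr4:119108745-119137330) had 32.63, 37.14 and 39.56 FPKM in quercetin libraries, 29.88, 33.03 and 31.27 FPKM in middle-aged controls and 41.64, 38.39 and 38.73 FPKM in young controls. All middle-aged controls lay below all young controls, as for 9.41% of all genes. Quercetin 1 lay within the range of the middle-aged controls. The means were 36.4 ± 3.52 FPKM with quercetin, 31.4 ± 1.58 FPKM in middle-aged controls and 39.6 ± 1.79 FPKM in young controls.

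In the comparison of middle-aged control over young control, which asks what differed with age, none of the 10 genes passed an adjusted p of 0.05 in limma, where 0.23% of all genes tested did (30 genes, 0.0842% higher and 0.145% lower). Mfsd2a and Slc2a1 had an unadjusted p under 0.05, both lower with age, beside 6.63% of all genes in that direction and 12.2% in either. The log2 fold change of Mfsd2a was -0.59 (SE 0.102, 95% interval -0.81 to -0.36, adjusted p = 0.0532), a difference of -36.2% in mean FPKM. That of Slc2a1 was -0.33 (SE 0.0663, interval -0.47 to -0.18, adjusted p = 0.0739), a difference of -20.7% in mean FPKM. They were the 2 members whose middle-aged controls all lay below the young controls, against 9.41% of all genes, and no member lay wholly above, against 8.81%. With each of the 9 libraries left out in turn, the log2 fold change of Mfsd2a lay between -0.73 and -0.51 and its adjusted p between 0.0027 and 0.181. It passed in 1 of the 9 settings, without middle-aged control 3, the highest of its group. The log2 fold change of Slc2a1 lay between -0.36 and -0.29 and its adjusted p between 0.0393 and 0.273. It passed in 1 of 9, without middle-aged quercetin 1. That library is in neither group compared here, so the log2 fold change stayed at -0.33. Leaving it out changed the estimate of the spread, which the 3 groups share.

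In the comparison of middle-aged quercetin over middle-aged control, which asks what the compound changed, again none of the 10 genes passed in limma, where 0.168% of all genes did (22 genes, 0.138% higher and 0.0306% lower). The same 2 genes had an unadjusted p under 0.05, both higher with quercetin, beside 6.98% of all genes in that direction and 11.7% in either. The log2 fold change of Mfsd2a was 0.40 (SE 0.102, interval 0.18 to 0.63, adjusted p = 0.177), a mean 35.7% higher, and its values were higher in 3 of 3 quercetin libraries than in any middle-aged control, as for 8.97% of all genes. No member lay wholly below, against 7.35% of all genes. With 1 library left out it lay between 0.32 and 0.54, with an adjusted p between 0.0258 and 0.478, and passed in 1 of 9 settings, without middle-aged control 3. The log2 fold change of Slc2a1 was 0.21 (SE 0.0663, interval 0.06 to 0.35, adjusted p = 0.276), and between 0.15 and 0.28 with 1 library left out, passing in 0 of 9. The 2 comparisons share the middle-aged controls, so a low or high library there moves both with opposite sign.

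In the comparison of middle-aged quercetin over young control, 0 members passed in limma, beside 0.0766% of all genes (10 genes, 0.0383% in each direction), and 0 had an unadjusted p under 0.05, beside 6.3% of all genes. Mfsd2a had a log2 fold change of -0.19 (interval -0.41 to 0.04, adjusted p = 0.813) and Slc2a1 of -0.12 (interval -0.27 to 0.03, adjusted p = 0.818). Mfsd2a and Ocln were lower in all quercetin than in all young libraries, as were 5.82% of all genes, and no member was higher in all, against 6.45%.

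**Figure D2:**
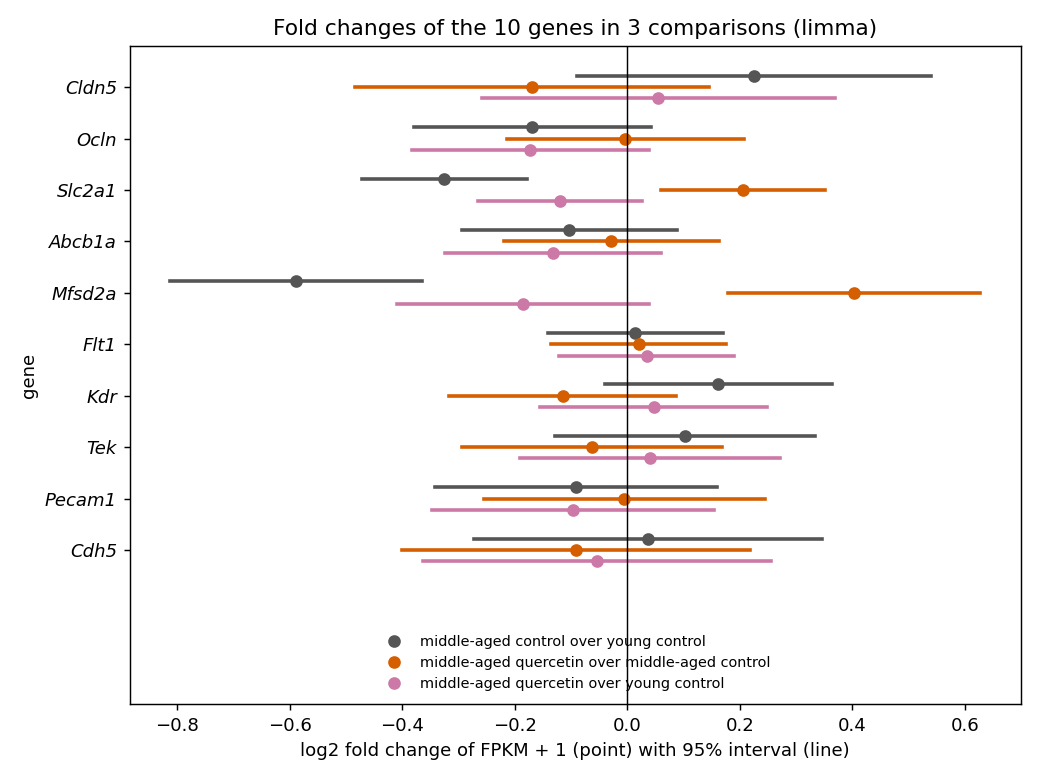
Log2 fold change of FPKM + 1 (horizontal axis, points) with its 95% interval from limma (lines) for the 10 genes in 3 comparisons. The intervals of Mfsd2a and Slc2a1 lie below 0 for middle-aged control over young control and above 0 for middle-aged quercetin over middle-aged control, and all other intervals cross 0.

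Among the tight junction genes, Cldn5 (gene ID 12741, chr16:18776847-18778262) had 12.09, 9.88 and 14.13 FPKM in quercetin libraries, 11.76, 16.91 and 12.43 FPKM in middle-aged controls and 10.46, 13.13 and 10.86 FPKM in young controls. The groups overlapped, and middle-aged control 2 was the highest of all. Its log2 fold changes were 0.23 for middle-aged control over young control (interval -0.09 to 0.54, adjusted p = 0.561) and -0.17 for quercetin over middle-aged control (interval -0.48 to 0.14, adjusted p = 0.698). Without middle-aged control 2 they were 0.075 and -0.019.

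Ocln (gene ID 18260, chr13:100496504-100552718) encodes occludin, a membrane protein of the same junctions. It had 4.62, 4.77 and 4.51 FPKM in quercetin libraries, 4.94, 4.76 and 4.26 FPKM in middle-aged controls and 4.80, 4.88 and 6.50 FPKM in young controls. Young control 3, the library with the most choroid plexus transcripts, stood away from the rest, while middle-aged quercetin 2, the other library with many of them, did not. The part of these transcripts in the level of Ocln was not tested. The log2 fold change was -0.17 for middle-aged control over young control (adjusted p = 0.515) and -0.17 for quercetin over young control (adjusted p = 0.818), and each was -0.05 without young control 3.

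Abcb1a (gene ID 18671, chr5:8567091-8748575) encodes the drug efflux pump P-glycoprotein of mouse brain capillaries. It had 6.74, 6.26 and 6.76 FPKM in quercetin libraries, 6.63, 7.47 and 6.16 FPKM in middle-aged controls and 8.30, 7.30 and 6.43 FPKM in young controls. All groups overlapped, with log2 fold changes of -0.10 for middle-aged control over young control (interval -0.29 to 0.09) and -0.03 for quercetin over middle-aged control (interval -0.22 to 0.16). The first of these was -0.022 without young control 1 and -0.18 without young control 3. The near copy Abcb1b may share reads with Abcb1a, so the level of Abcb1a is less certain than the others.

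The VEGF receptors did not separate the groups. Flt1 (gene ID 14254, chr5:147561604-147726438), a receptor that also traps VEGF, had 10.82, 12.07 and 11.69 FPKM in quercetin libraries, 10.86, 12.75 and 10.53 FPKM in middle-aged controls and 11.80, 11.08 and 10.81 FPKM in young controls. Its log2 fold changes were near 0, with intervals of -0.14 to 0.17 for middle-aged control over young control and -0.14 to 0.18 for quercetin over middle-aged control. Kdr (gene ID 16542, chr5:75932827-75979072), the main signalling VEGF receptor of endothelium, had 2.44, 2.50 and 2.80 FPKM in quercetin libraries, 2.99, 3.23 and 2.44 FPKM in middle-aged controls and 2.64, 2.24 and 2.52 FPKM in young controls. Middle-aged controls 1 and 2 were above all other libraries and middle-aged control 3 was not, and the log2 fold change was 0.16 over young control (interval -0.04 to 0.36, adjusted p = 0.516), and 0.098 without middle-aged control 2 and 0.25 without middle-aged control 3.

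Tek (gene ID 21687, chr4:94739086-94874976) encodes TIE2, the angiopoietin receptor. Its level was 2.42, 2.56 and 2.89 FPKM in quercetin libraries, 2.83, 3.12 and 2.42 FPKM in middle-aged controls and 2.90, 2.63 and 2.08 FPKM in young controls, and all groups overlapped. The log2 fold changes of Tek were 0.10 for middle-aged control over young control and -0.06 for quercetin over middle-aged control. The first was 0.0063 without young control 3, and the second was -0.00046 without middle-aged control 2.

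The adhesion genes also overlapped between groups. Pecam1 (gene ID 18613, chr11:106654213-106715281), which encodes CD31 at contacts between endothelial cells, had 4.58, 4.83 and 6.90 FPKM in quercetin libraries, 5.09, 5.88 and 5.20 FPKM in middle-aged controls and 5.95, 5.64 and 5.81 FPKM in young controls. The 3 quercetin libraries spanned the lowest and the highest value of the gene. Cdh5 (gene ID 12562, chr8:104101613-104144504), which encodes VE-cadherin of adherens junctions, had 2.30, 2.57 and 3.15 FPKM in quercetin libraries, 2.66, 3.76 and 2.39 FPKM in middle-aged controls and 3.33, 2.78 and 2.34 FPKM in young controls. The log2 fold change of Cdh5 was 0.04 for middle-aged control over young control (interval -0.27 to 0.35) and -0.09 for quercetin over middle-aged control (interval -0.40 to 0.22).

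Over the 10 genes the median log2 fold change was -0.04 for middle-aged control over young control, -0.02 for quercetin over middle-aged control and -0.08 for quercetin over young control, beside medians of -0.0049, 0.0061 and 0.0027 over all genes tested.

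The receptor and adhesion genes tended to vary together from library to library, and each group held both high and low libraries. The mean deviation of Flt1, Kdr, Tek, Pecam1 and Cdh5 from their 9-library means, on the log2(FPKM + 1) scale, was -0.13, -0.05 and 0.12 in quercetin 1, 2 and 3. It was 0.0014, 0.19 and -0.10 in middle-aged controls 1, 2 and 3, and 0.09, -0.03 and -0.09 in young controls 1, 2 and 3. Quercetin 3, middle-aged control 2 and young control 1 were thus the highest of their groups. The same 3 libraries were the highest of their groups in the summed level of 10 pericyte and smooth muscle genes, which was 61.91, 69.38 and 83.76 FPKM in quercetin libraries, 73.4, 93.33 and 66.67 FPKM in middle-aged controls and 88.32, 80.75 and 65.48 FPKM in young controls. Of the pericyte and smooth muscle genes, Vtn, Kcnj8, Acta2, Tagln and Myh11 were each highest in these 3 libraries, and the others were not. Among quercetin libraries, Rgs5 and Notch3 were highest in quercetin 1 and Anpep in quercetin 2. Notch3 and Abcc9 were highest of their group in middle-aged control 1, Abcc9 also in young control 3, and Pdgfrb was level in middle-aged controls 1 and 2. Whether the share of vessels in the tissue took part in the shared variation was not tested.

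All 10 of the 10 pairs among these 5 genes had a positive Pearson correlation over the 9 libraries, with a median r of 0.647. The highest was 0.878 for Tek with Cdh5 and the lowest 0.318 for Kdr with Pecam1. The pattern was not particular to these genes, as Abcb1a stood at 0.743 and Cldn5 at 0.568 with Cdh5. Ocln went the other way, at -0.535 with Tek. The share of positive pairs among all genes was not counted. Over all 45 pairs of the 10 genes, 31 were positive and the median r was 0.318. Mfsd2a and Slc2a1 correlated with each other at 0.755, while Mfsd2a and Kdr stood at -0.793. These values are a description over 9 libraries that share 3 groups.

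Mfsd2a and Slc2a1 were set against these 5 genes after their values had been seen, so the result is a description with no test. The log2 deviation of Slc2a1 minus the mean deviation of the 5 genes was 0.0082, 0.11 and 0.03 in quercetin libraries. It was -0.25, -0.30 and -0.08 in middle-aged controls and 0.13, 0.14 and 0.21 in young controls. After this subtraction the 3 groups did not overlap, while before it quercetin 1 lay within the range of the middle-aged controls. The share of all genes that separate after such a subtraction was not counted. The log2 deviation of Mfsd2a minus that mean was 0.21, 0.07 and -0.0017 in quercetin libraries. It was -0.50, -0.63 and 0.04 in middle-aged controls and 0.06, 0.34 and 0.42 in young controls. Here middle-aged control 3 lay within the range of the quercetin libraries.

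**Figure D3:**
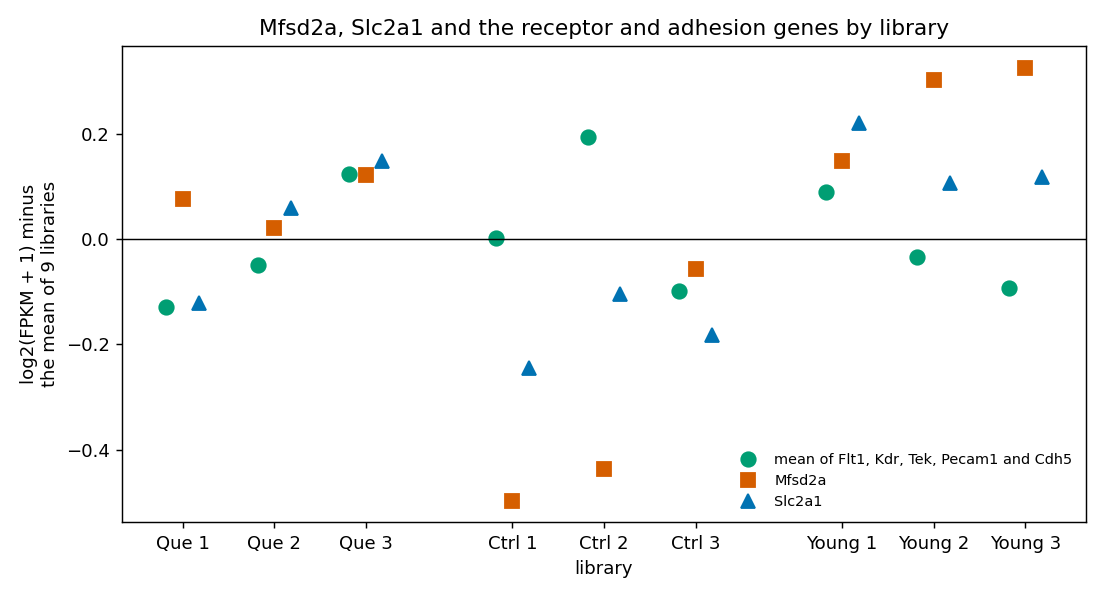
Deviation of log2(FPKM + 1) from the mean of 9 libraries (vertical axis) for Mfsd2a, Slc2a1 and the mean of Flt1, Kdr, Tek, Pecam1 and Cdh5 in each library (horizontal axis; Que, middle-aged quercetin; Ctrl, middle-aged control; Young, young control). The receptor and adhesion mean is highest in middle-aged control 2 (0.19), a library in which Mfsd2a is low (-0.44).

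Markers of astrocytes, which wrap the capillaries and also make GLUT1, are given beside these values. The summed level of 7 astrocyte genes was 706.19 to 727.4 FPKM in quercetin libraries, 710.47 to 712.38 FPKM in middle-aged controls and 645.84 to 693.06 FPKM in young controls. Its members went both ways with age, 3 with a positive and 4 with a negative log2 fold change, and none passed. Gfap, an intermediate filament protein, had 0.44 (adjusted p = 0.0624) and Gjb6, the gap junction protein connexin 30, had -0.39 (adjusted p = 0.130) for middle-aged control over young control. Microglial genes (5 genes) summed to 100.59 to 110.63 FPKM in quercetin libraries, 101.06 to 113.2 FPKM in middle-aged controls and 95.32 to 97.69 FPKM in young controls. Of the 9 hippocampal neuron genes, 7 had a positive and 2 a negative log2 fold change with age. All 9 had a negative one for quercetin over middle-aged control, beside 6139 of 13062 genes tested, and none passed. The part of these cells in the differences of Mfsd2a and Slc2a1 was not tested.

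The promoters of Mfsd2a and Slc2a1 are shown because the group means of these 2 genes lay in the same order. Each line gives the 250 bases before the transcript start used in the RefSeq promoter table (GRCm38.p6), and the capitals mark ACGTG, the core of the hypoxia response element. The Mfsd2a stretch is chr4:122961189-122961438 on the minus strand and that of Slc2a1 is chr4:119108495-119108744 on the plus strand. The start used for Mfsd2a lies a few bases inside the outer end of the gene given above.
Mfsd2a: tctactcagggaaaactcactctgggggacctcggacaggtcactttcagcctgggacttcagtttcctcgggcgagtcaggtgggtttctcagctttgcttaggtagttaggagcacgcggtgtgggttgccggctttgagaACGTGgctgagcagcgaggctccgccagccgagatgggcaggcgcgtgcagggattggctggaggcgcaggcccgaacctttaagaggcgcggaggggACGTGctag
Slc2a1: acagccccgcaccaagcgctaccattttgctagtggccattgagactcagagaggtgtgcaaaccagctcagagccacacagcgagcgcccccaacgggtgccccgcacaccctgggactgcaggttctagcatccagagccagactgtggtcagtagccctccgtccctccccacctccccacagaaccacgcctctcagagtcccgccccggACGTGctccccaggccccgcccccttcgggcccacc

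Promoter windows of 300 bases (250 before and 50 after the start) were at hand for 8 of the 10 genes, all but Cdh5 and Pecam1. Searched on both strands, ACGTG was present in the windows of Mfsd2a (2 matches) and Slc2a1 (1 match) and in 19.6% of 32851 windows of all genes. The ETS motif AGGAAG (35.4% of all windows) was found in Abcb1a and Flt1, and the ETS motif CCGGAA (14.9%) in Kdr and Ocln. The SOX motif ACAAAG (18.7%) was found in Abcb1a and Tek, and the TCF/LEF motif TCAAAG (16.0%) in Abcb1a and Mfsd2a. The GC box GGGCGG (35.7%) was found in Cldn5, Flt1, Kdr, Ocln and Slc2a1. The letters TATAAA of the TATA box (13.6%) were found in Flt1 and Slc2a1. They lay at -31 from the start in Flt1, but at 28, after the start, in Slc2a1. Matches of different motifs were allowed to overlap. These are matches of letters and not sites of binding.

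Around the 10 genes, 93 genes of the same biology were read in 6 lists, of which 84 were tested. The lists held VEGF and angiopoietin ligands and co-receptors, junction proteins, barrier transporters, endothelial identity genes, Wnt signalling genes and genes of leak and activation. In limma 0 of the 84 passed for middle-aged control over young control, with 5 higher and 10 lower at an unadjusted p under 0.05, where 5.59% of all genes were higher and 6.63% lower. For quercetin over middle-aged control 1 passed, Vegfa, with 8 higher and 13 lower at an unadjusted p under 0.05 (6.98% and 4.69% of all genes). For quercetin over young control 1 passed, Tfrc, with 5 higher and 4 lower at an unadjusted p under 0.05 (3.41% and 2.89% of all genes). The medians over the 84 genes were -0.03, 0.02 and -0.02 in these comparisons. In what follows, a log2 fold change with age is middle-aged control over young control, and one with quercetin is middle-aged quercetin over middle-aged control.

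Vegfa encodes VEGF-A, the ligand of Flt1 and Kdr, which in brain is made mostly by astrocytes and neurons. It had 27.42, 30.61 and 30.88 FPKM in quercetin libraries, 23.15, 20.66 and 22.96 FPKM in middle-aged controls and 22.05, 23.69 and 22.6 FPKM in young controls. All quercetin libraries were above all middle-aged controls, as for 8.97% of all genes, and above all young controls, as for 6.45%. Both control groups overlapped. Vegfa rose with quercetin over middle-aged control by a log2 fold change of 0.40 (SE 0.0581, limma adjusted p = 0.029), a mean 33.2% higher, and over young control the value was 0.36 (adjusted p = 0.0796). The call ended without any 1 of quercetin 2 or 3, middle-aged controls 1, 2 or 3 and young control 2, with adjusted p-values of 0.172, 0.0952, 0.0882, 0.0763, 0.0774 and 0.0503 in that order, while the log2 fold change stayed between 0.35 and 0.45. It also ended without both choroid plexus libraries (adjusted p = 0.201).

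Of the 19 ligands and co-receptors, Vegfa included, 15 were tested and the median log2 fold change was 0.0040 for middle-aged control over young control and -0.10 for quercetin over middle-aged control. Nrp1, a VEGF co-receptor, had a log2 fold change of -0.16 with age (adjusted p = 0.196), and Notch4, a Notch receptor of endothelium, of -0.27 (adjusted p = 0.267). Apln, the apelin ligand of tip cells, had 0.25 for quercetin over middle-aged control (adjusted p = 0.283), and Tie1, the partner receptor of TIE2, -0.31 for quercetin over young control (adjusted p = 0.701).

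Of the barrier transporters 16 of 16 were tested, and they held the smallest p-values with age among the related genes. Slc7a5, the large neutral amino acid carrier LAT1, had 18.88, 19.83 and 19.59 FPKM in quercetin libraries, 16.83, 17.13 and 16.59 FPKM in middle-aged controls and 19.32, 20.36 and 19.59 FPKM in young controls. The middle-aged controls lay below all other libraries, with log2 fold changes of -0.22 over young control (adjusted p = 0.0621) and 0.19 for quercetin over them (adjusted p = 0.105). Of all genes, 9.41% had middle-aged controls wholly below young controls, and 8.97% had quercetin libraries wholly above middle-aged controls. Slc6a6, the taurine carrier, had 23.37, 24.1 and 22.95 FPKM in quercetin libraries, 27.58, 26.44 and 25.21 FPKM in middle-aged controls and 22.8, 22.73 and 21.79 FPKM in young controls. Here the middle-aged controls lay above all others, with log2 fold changes of 0.23 (adjusted p = 0.0624) and -0.16 (adjusted p = 0.196). Of all genes, 8.81% separated from young controls in that direction, and 7.35% had quercetin libraries wholly below middle-aged controls.

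Tfrc, the transferrin receptor that takes up iron at the barrier and in neurons, had 17.91, 17.48 and 16.54 FPKM in quercetin libraries, 20.68, 19.53 and 19.28 FPKM in middle-aged controls and 20.99, 22.09 and 23.36 FPKM in young controls. The 3 groups did not overlap. Quercetin libraries lay wholly below middle-aged controls, as for 7.35% of all genes, and middle-aged controls wholly below young controls, as for 9.41%. Quercetin libraries also lay wholly below young controls, as for 5.82%. The share of all genes that separated in every pair was not counted. The log2 fold change of Tfrc was -0.15 with age (adjusted p = 0.265) and -0.19 with quercetin (adjusted p = 0.200). Tfrc fell in quercetin libraries relative to young controls, with a log2 fold change of -0.34 (SE 0.0505, limma adjusted p = 0.049), and the call ended when any 1 of the 9 libraries was left out (adjusted p between 0.075 and 0.188). Abcg2, another efflux pump, had -0.19 in that comparison (adjusted p = 0.755).

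**Figure D4:**
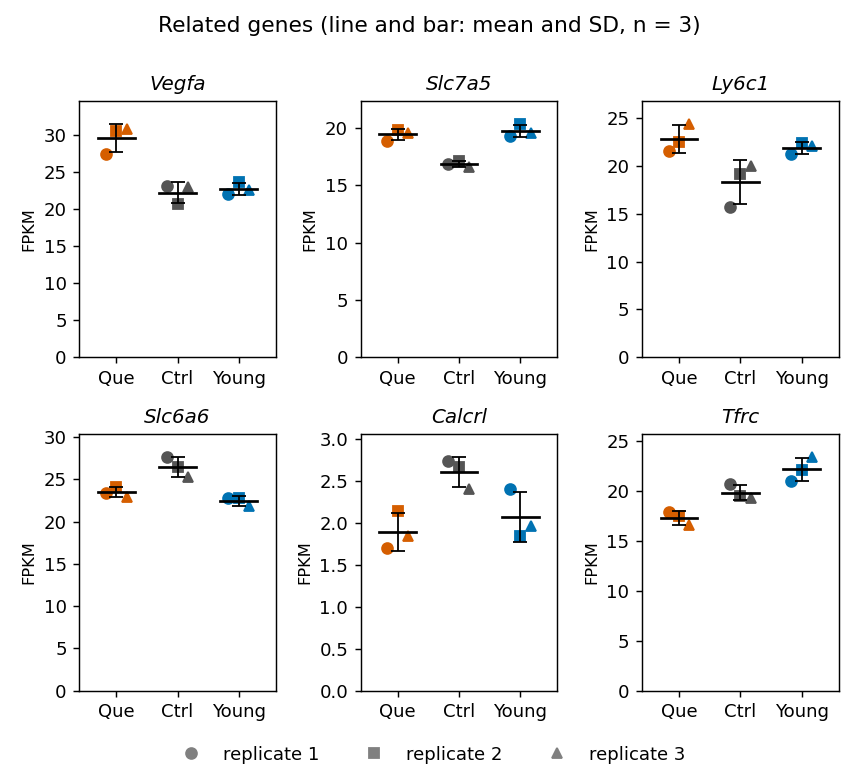
FPKM (vertical axis) of related genes named in the text in every library, with middle-aged quercetin, middle-aged control and young control side by side; points are libraries and bars are means with SD (n = 3). Vegfa lies between 27.42 and 30.88 FPKM with quercetin, above every control library.

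Of the junction proteins 13 of 14 were tested, and none passed. With age, 10 of the 13 had a negative log2 fold change (median -0.08), beside 6807 of 13062 genes tested, and 2 had an unadjusted p under 0.05. With quercetin, 11 of the 13 had a positive one (median 0.05), beside 6923 of 13062, and 1 had an unadjusted p under 0.05. Both comparisons share the middle-aged controls, which by itself favours opposite signs. Tjp1, the scaffold protein ZO-1, had 21.84, 22.05 and 22.12 FPKM in quercetin libraries and 20.4, 20.13 and 19.91 FPKM in middle-aged controls, a log2 fold change of 0.12 (adjusted p = 0.264). Ctnnd1, the p120 catenin, had -0.12 with age (adjusted p = 0.288). Cgnl1 (paracingulin) had -0.39 with age (adjusted p = 0.407) and -0.36 for quercetin over young control (adjusted p = 0.785). Its level was 3.16, 2.59 and 5.10 FPKM in young controls, 1.98 to 3.03 FPKM in middle-aged controls and 2.12, 2.84 and 2.57 FPKM with quercetin. Young control 3, the library with the most choroid plexus transcripts, thus stood apart. Middle-aged quercetin 2, the other library with many of them, was the highest of its group but within the range of the middle-aged controls. The part of these transcripts was not tested. Cgn (cingulin) had 0.17 for quercetin over middle-aged control (adjusted p = 0.512).

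Of 25 endothelial identity genes 23 were tested and none passed, with medians of 0.0056 with age and 0.03 for quercetin over middle-aged control. Ly6c1, a surface protein of mouse brain endothelium, had 21.56, 22.53 and 24.39 FPKM in quercetin libraries, 15.66, 19.14 and 20.01 FPKM in middle-aged controls and 21.21, 22.35 and 22.11 FPKM in young controls. It was lowest in the middle-aged controls, as Mfsd2a was, with log2 fold changes of -0.26 with age (adjusted p = 0.232) and 0.31 with quercetin (adjusted p = 0.177). Calcrl, the receptor of adrenomedullin, had 1.70, 2.14 and 1.84 FPKM in quercetin libraries, 2.74, 2.67 and 2.40 FPKM in middle-aged controls and 2.41, 1.85 and 1.96 FPKM in young controls. Its log2 fold changes were 0.23 with age (adjusted p = 0.351) and -0.32 with quercetin (adjusted p = 0.232). Ly6a had 0.48 (adjusted p = 0.644) and Adgrl4 0.25 (adjusted p = 0.681) for quercetin over young control.

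All 14 Wnt signalling genes were tested and none passed. For quercetin over middle-aged control, 7 had a positive and 7 a negative log2 fold change (median -0.0037). In limma 4 of the 14 were lower there at an unadjusted p under 0.05, beside 4.69% of all genes. They were Reck (-0.28), Apcdd1 (-0.24), Wnt7a (-0.19) and Tnfrsf19 (-0.10), with limma adjusted p-values between 0.208 and 0.416. In the same comparison 0 were higher, beside 6.98%. For quercetin over young control, 13 of 14 had a negative log2 fold change (median -0.08), beside 6326 of 13062 genes tested. In that comparison 0 of the 14 had an unadjusted p under 0.05 in limma. Wnt7a, a ligand that neural cells send to endothelium, had -0.14 (adjusted p = 0.839) there. Reck, which recognises that ligand at the endothelial surface, had 0.16 with age (adjusted p = 0.439), -0.28 for quercetin over middle-aged control (adjusted p = 0.208) and -0.12 for quercetin over young control (adjusted p = 0.847). Axin2, a Wnt target gene, had -0.16 with age (adjusted p = 0.431) and 0.08 with quercetin (adjusted p = 0.733). Apcdd1, another of the target genes in the list, had 0.12 with age (adjusted p = 0.621) and -0.24 with quercetin (adjusted p = 0.338). Of 5 leak and activation genes 3 were tested. Plvap, which marks fenestrated and leaky vessels, had 0.09 with age (adjusted p = 0.734) and -0.08 with quercetin (adjusted p = 0.757). Icam1, a leukocyte adhesion protein, had 0.17 with age (adjusted p = 0.602), -0.19 with quercetin (adjusted p = 0.605) and -0.01 for quercetin over young control, where Vcam1 had 0.01.

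**Figure D5:**
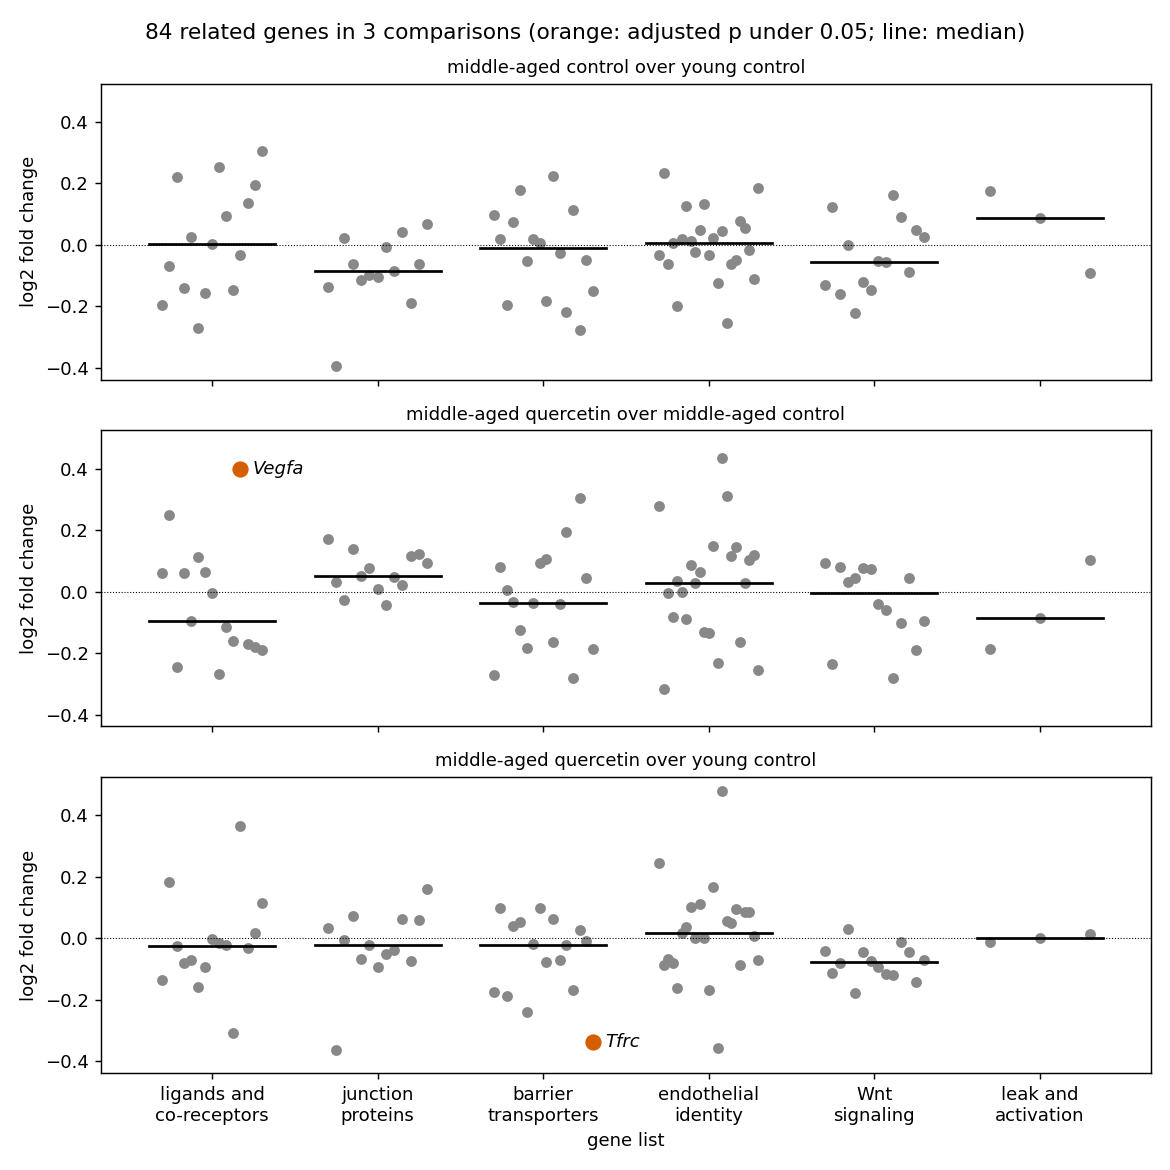
Log2 fold changes of the tested genes of 6 related lists (points, 1 per gene) in 3 comparisons, with the median of each list. The genes past the adjusted p of 0.05 are Vegfa (0.40) for quercetin over middle-aged control and Tfrc (-0.34) for quercetin over young control, and the list medians lie between -0.10 and 0.09.

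The 8 genes whose levels over the 9 libraries were most like the mean standardised profile of the 10 genes were St18 (Pearson r = 0.978), Uaca (0.974), Serpinf1 (0.969), Emp1 (0.947), Txnrd2 (0.944), Trim35 (0.938), Cxcl12 (0.935) and Adgra2 (0.932). They were picked as the highest of all tested genes, so their r is a description. Adgra2, an endothelial receptor of the Wnt7 pathway, was also in the list of Wnt signalling genes.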

How the data were processed

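RNA-seq of 9 hippocampal libraries (oligo-dT selection) was used. The authors deposited FPKM per gene. HISAT2 2.0.4, Bowtie2 2.2.5 and RESM are given in the paper, but TopHat2, Cufflinks and GRCm38 in the submitters' processing notes. The tool behind the FPKM is thus uncertain. Values were present for 18798 of 22173 genes. Genes were kept where 3 or more of the 9 libraries reached 1 FPKM (13062 genes). Their log2(FPKM + 1) entered a linear model in limma 3.58.1 under R 4.3.3, with 1 mean per group, a mean-variance trend in the empirical Bayes step, Benjamini-Hochberg adjustment over all genes of each of 3 comparisons and a threshold of 0.05. The pseudocount understates fold changes of low genes. FPKM are not counts, so no count model was fitted. The fit was tested on simulated data with independent normal noise and no outlying libraries. That test does not cover libraries that stand apart, as some do here.

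The members, lists and tests were chosen with earlier results of these data known. Named genes are all 10 members, every related gene that passed, the 2 with the smallest p of each related list and comparison, and the 8 most like the members. Some marker genes and further Wnt signalling genes are named as well. The values of 1 gene that this rule names are not reported here. Replicate numbers did not pair the samples. Alternatives were a pseudocount of 0.1, a minimum mean of 5 FPKM, no filter, size factors, a replicate block, 6 libraries, no trend, and libraries left out. Positions and promoters come from RefSeq GRCm38.p6, matched by gene ID or symbol (10 and 8 of 10 members). Figures used Python 3.11.15 and matplotlib 3.10.9.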

Additional observations from a re-analysis of the deposited data

How the results depend on the processing

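The counts of all genes past the threshold moved widely. For middle-aged control over young control (30), they were 16 with no filter, 66 with a mean of at least 5 FPKM, 17 with no trend, 9 without both choroid plexus libraries and 12 to 47 with 1 library left out. For quercetin over middle-aged control (22), they were 1 with no filter, 13 with the replicate block, 14 with 6 libraries, 2 with no trend, 1 without both choroid plexus libraries and 3 to 29 with 1 library left out. For quercetin over young control (10), they were 4 with no filter, 6 with the replicate block, 4 with 6 libraries, 4 without both choroid plexus libraries and 4 to 7 with 1 library left out. The cause was not tested.

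Of the 10 members, 1 (Mfsd2a) passed for middle-aged control over young control with a mean of at least 5 FPKM (adjusted p = 0.0345), which leaves out Kdr, Tek, Cdh5 and Ocln, and 1 (Mfsd2a) with the replicate block (adjusted p = 0.0413). Over the 8 settings other than 1 library left out, the adjusted p of Mfsd2a in limma lay between 0.0345 and 0.229 with age. It lay between 0.122 and 0.397 with quercetin. For Slc2a1 it lay between 0.0509 and 0.259 with age and between 0.239 and 0.548 with quercetin. With 1 library left out, 0 to 1 members passed for middle-aged control over young control and for quercetin over middle-aged control. For quercetin over young control 0 passed. Of the related genes, Slc7a5 and Slc6a6 (2) passed with age at a mean of at least 5 FPKM and 0 to 1 with 1 library left out (Slc3a2 without middle-aged control 2). For quercetin over middle-aged control the count was 0 with no filter, 6 libraries, no trend or without both choroid plexus libraries, and 0 to 1 with 1 library left out. For quercetin over young control it was 0 in each of these settings. The replicate block gave 1 in both comparisons, Ly6a in place of Vegfa and of Tfrc. Same-numbered libraries correlated at -0.198 to 0.118 in their deviations, and others at -0.203 to 0.282.

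Mfsd2a and Slc2a1 kept their direction in every setting run. Signs near 0 turned. Without both choroid plexus libraries they did so for middle-aged control over young control in Flt1 (-0.011) and Cdh5 (-0.055), for quercetin over middle-aged control in Abcb1a (0.0029), Flt1 (-0.011) and Pecam1 (0.057), and for quercetin over young control in Flt1 (-0.022) and Tek (-0.045). With 1 library left out, the ranges were -0.064 to 0.063 (Flt1) and -0.11 to 0.14 (Cdh5) for middle-aged control over young control. They were -0.055 to 0.033 (Ocln), -0.084 to 0.037 (Abcb1a), -0.029 to 0.098 (Flt1), -0.16 to 0.089 (Pecam1) and -0.19 to 0.054 (Cdh5) for quercetin over middle-aged control. They were -0.059 to 0.18 (Cldn5), -0.0012 to 0.083 (Kdr), -0.057 to 0.11 (Tek) and -0.15 to 0.041 (Cdh5) for quercetin over young control.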
